A study of Mus musculus with 50 samples.

Results

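The RNA of spinal motor neuron nuclei from mice aged 2 years was set against that of young adults at P21 and P56, to find which genes move late in life and whether they also differ from each young adult age on its own. The members were taken by label: 2 libraries at 2 years and 6 in young adults, 3 at P21 and 3 at P56, which makes 8 of the 28 RNA libraries and of the 50 samples of the series. The series followed mouse motor neurons from the embryo to old age, and in culture, by RNA-seq and by ATAC-seq, which marks open chromatin. All 8 libraries came from untreated C57BL/6 mice with Chat-Cre;SUN1-GFP-3xMYC, in which Cre from the choline acetyltransferase gene switches on a GFP of the nuclear envelope, so the nuclei of all cholinergic cells carry the tag and not those of skeletal motor neurons only. Per the study's methods, tagged nuclei were pulled out on beads from brachial and lumbar cord, and several animals were pooled for a replicate, so the spread between libraries is a spread between pools. The groups differed in their age label (P21, P56, 2yr) and in nothing else that the labels give.

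Motor neurons are born in the embryo and are not replaced, so those of an old mouse have worked for its whole life. Nuclear RNA holds much RNA that is newly made and not yet spliced, and its levels follow transcription more closely than those of whole cells. Ageing nervous tissue is known for raised immune and glial transcripts and for the loss of contacts between motor nerves and muscle.

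Levels are given as CPM, the counts of a gene per 1000000 counts of its library, which were scaled between libraries with edgeR's TMM factors. A gene was called when its Benjamini-Hochberg adjusted p from edgeR's quasi-likelihood test, over 15030 tested genes of 55385 in the files, was under 0.05 and its change at least 2-fold. Every adjusted p below is of this kind, and changes are given as log2 fold change ± standard error, with 2 libraries at 2 years and 6 in young adults.

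The libraries at 2 years also stood apart in depth, in fragment length and in how reads fell between near-identical genes. They held 4009003 and 9681412 counts, against 3901648 to 3990891 at P21 and 3931157 to 3978862 at P56. Where a gene has a near-identical copy elsewhere, the copies took 1.06% and 3.17% of the summed counts of 7 such pairs at 2 years and 21.4% to 29.1% in young adults. All 7 copies are among the genes called lower below. Their low share at 2 years against young adults is thus the same result and no separate one. At P13 the copies took 3.68% to 4.38% and at P4 28.8% to 34.5%. In this share the libraries at 2 years resembled P13 and the young adult ones resembled P4. The share was also low in the embryo, at 3.9% to 5.5% at E13.5, so it did not follow the order of ages. At E10.5 the copies took 2.62% to 3.06%. Per the study's methods, the E10.5 libraries came from whole cells sorted from Hb9-GFP embryos, so their values are not like for like with those of nuclei. The difference between the length and the effective length of a gene, which follows the length of the sequenced fragments, was 183 and 184 bases at 2 years and 206 to 226 in young adults. It was 171 to 183 bases at E10.5 and 267 to 274 at E13.5. The labels name no batch, and these differences cannot be told apart from age in the comparison with P21 and P56. The comparison of 2 years with the 2 libraries of P13 is given beside the main results because their share of copies is alike. It does not match the other differences: the length difference was 267 and 270 bases at P13, further from 2 years than in young adults, and the comparison also spans the end of maturation. The 23 motor neuron identity genes summed to 4338 and 4784 CPM at 2 years and 4124 to 5448 CPM in young adults, and *Chat*, which makes acetylcholine, changed by 0.03 on the log2 scale (adjusted p = 0.979). *Xist* and Y-linked transcripts were both present in each of the 8 libraries, with *Xist* at 1661 and 474 CPM at 2 years and 311 to 865 CPM in young adults. In replicate 1 at 2 years Y-linked *Uty*, *Kdm5d*, *Ddx3y* and *Eif2s3y* were at 26.8, 24.4, 10.65 and 15.1 CPM. The lowest young adult values were 44.0, 51.1, 16.25 and 33.3 CPM. Replicate 2 held 83.8, 88.8, 34.3 and 54.9 CPM. The mix of sexes in the pools, and its part in the results for X-linked and other genes, was not tested.

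At 2 years 109 genes were higher than in young adults, which is 0.725% of the genes tested, and 42 were lower, which is 0.279%. DESeq2 split its calls more evenly, with 94 higher and 73 lower. A gene was tested when every library of some age, which could be 2 years alone, held 5 CPM or more. This favours calls of higher genes, and with no filter edgeR called 217 higher and 111 lower. The median change over all tested genes was 0.06 on the log2 scale. Against P21 alone 85 genes were higher (0.566%) and 52 lower (0.346%), and against P56 alone 38 were higher (0.253%) and 22 lower (0.146%). The 2 young adult ages differed from each other by 1 gene higher (0.00665%) and 7 lower (0.0466%) at P56. Most genes at 2 years were thus within 2-fold of their young adult level or not resolved from it with these libraries.

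Of the 109 genes that were higher, 26 also passed against both young adult ages singly, 45 passed against P21 only, 7 against P56 only and 31 against neither. Of the 42 that were lower, 17 passed against both, 16 against P21 only, 5 against P56 only and 4 against neither. All 109 and all 42 kept their sign against each age. Their median change was 1.79 against P21 and 1.43 against P56 for the higher genes, and -2.17 and -1.56 for the lower ones. The 3 comparisons share libraries, so these counts describe the same genes and are no second test. Both libraries at 2 years lay above all 6 young adult libraries for 107 of the 109 genes, and below all 6 for 41 of the 42. Of all tested genes 2022 lay above and 1090 below in this way, which together is 20.7%.

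The 26 genes higher against each age were 8 clustered protocadherins (*Pcdhb2*, *Pcdhb3*, *Pcdhb4*, *Pcdhb7*, *Pcdhga1*, *Pcdhgb2*, *Pcdhgb4* and *Pcdhgb5*), the RNA *3222401L13Rik* from between them, 4 ribosomal protein genes, the mitochondrial genes *Atp5mpl*, *Tomm7* and *Acads*, small nucleolar and similar RNAs with 2 of their host transcripts, and *Drg1*, *Abtb1* and *E230020A03Rik*. The 17 genes lower against each age included *Csf2ra*, *Zfp57* and *Bc1*, and also *Rps27rt*, *Rpl9-ps6*, *Rpl10-ps3*, *Rps2-ps10*, *Gpx4-ps2* and *Eno1b*, which are near-identical copies of other genes and are described below. The oligodendrocyte genes among the late movers were not in either set, since none of them passed against P56.

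**Figure D1:**
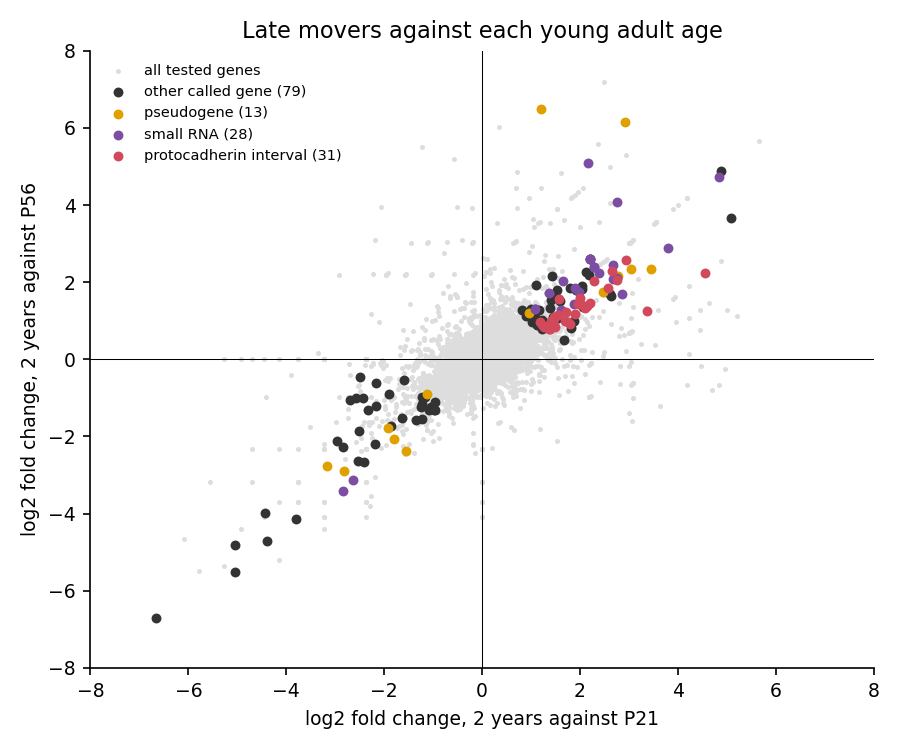
Each point is a gene, placed by its log2 fold change at 2 years against P21 (horizontal) and against P56 (vertical), with all 15030 tested genes in grey. The 151 called genes are coloured, 31 of them from the protocadherin interval, 28 small RNAs and 13 pseudogenes, and all have the same sign in both comparisons (4 lie beyond the axes, which end at 8).

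Clustered protocadherins made up 28 of the 109 higher genes. These are adhesion proteins of the neuronal surface that bind their own kind, and the set a neuron makes is used to tell its own branches from those of others. They lie in alpha, beta and gamma arrays side by side, each variable exon with a promoter of its own, and a neuron uses only some of those promoters. Alpha and gamma variable exons are spliced to exons that the whole array shares, whereas a beta gene stands alone.

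Of 58 clustered protocadherin genes in the files 56 were tested and all 56 changed upward under the main scaling, 54 of them with median-of-ratios scaling, with a median of 1.05 against 0.06 over all genes. The beta array held 17 called genes of 21 tested, with changes between 0.82 and 2.76. The gamma array held 11 of 22, of which 6 of 12 were of the A kind, 5 of 7 of the B kind and 0 of 3 of the C kind. None of the 13 alpha genes was called, and their changes ran from 0.01 to 0.88. No test was made of the difference between arrays. Against P21 singly 34 of the 56 were higher and against P56 singly 8, and none was called between P21 and P56.

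The summed level of the beta array was 270, 332 and 385 CPM at P21, 456, 416 and 445 CPM at P56, and 883 and 913 CPM at 2 years. Both libraries at 2 years lay far above the 6 others, at 2.34 times their mean, and the 3 libraries at P56 lay above the 3 at P21. The gamma array summed to 311, 321 and 294 CPM at P21, 433, 436 and 417 CPM at P56, and 758 and 747 CPM at 2 years, or 2.04 times the young adult mean. The groups did not overlap there either. The alpha array ran from 225 to 279 CPM in young adults and stood at 316 and 328 CPM at 2 years, a ratio of 1.28.

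**Figure D2:**
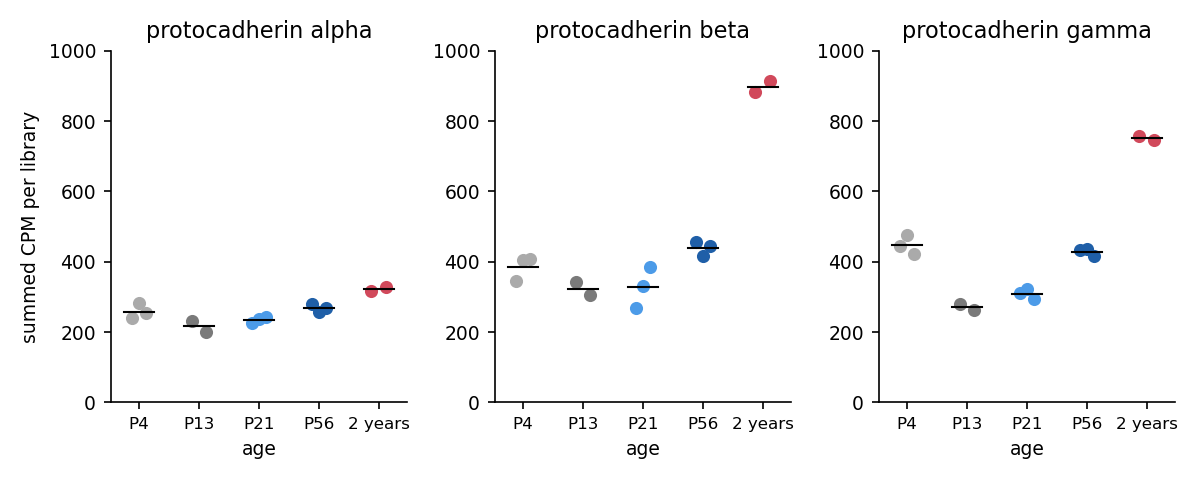
Summed CPM of all genes, tested or not, of the alpha (14), beta (22) and gamma (22) protocadherin arrays (vertical axis) by age, where each point is a library and each line the mean of an age. The beta and gamma arrays stand at 883 and 913 CPM and at 758 and 747 CPM at 2 years, above every library at P4, P13, P21 and P56, while the alpha array stands at 316 and 328 CPM at 2 years.

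*Pcdhb4* was at 0.540, 2.42 and 3.17 CPM at P21, at 3.67, 1.80 and 2.52 CPM at P56 and at 16.1 and 15.7 CPM at 2 years. The 2 old libraries were close to each other and clear of all 6 young ones. Its change of 2.76 ± 0.35 was the largest of the protocadherins (adjusted p = 6.31e-04), and it passed against P21 (2.94, adjusted p = 0.00223) and against P56 (2.57, adjusted p = 0.0102). The next largest were *Pcdhb3* at 2.47 ± 0.33 and *Pcdhb2* at 2.40 ± 0.37, its neighbours on the chromosome. *Pcdhb2* was at 1.88 to 4.72 CPM in young adults, with a median of 2.87, and at 16.63 and 14.98 CPM at 2 years. For *Pcdhb2*, *Pcdhb3* and *Pcdhb4*, of the ages from P4 on, only 2 years had all its libraries at 5 CPM or more. Among these ages they thus met the limit for testing only through the group where they were high.

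*Pcdhb14*, with more counts, had 47.0, 57.4 and 58.7 CPM at P21, 86.5, 57.2 and 74.3 CPM at P56, and 147 and 143 CPM at 2 years. Here the P56 libraries spread widely, and the old ones still lay above all of them. Its change was 1.21 ± 0.22 (adjusted p = 0.0064), with 1.41 against P21 (adjusted p = 0.007) and 0.9955 against P56 (adjusted p = 0.0903), so it was called against P21 and not against P56. In the gamma array *Pcdhgb5* had 17.54, 15.02 and 17.97 CPM at P21, 24.4, 22.8 and 23.9 CPM at P56, and 60.3 and 51.4 CPM at 2 years. The P56 libraries lay above those of P21 and the old ones above both, with a change of 1.48 ± 0.16 overall (adjusted p = 2.15e-04) and 1.23 against P56 (adjusted p = 0.00802). *Pcdhgb4*, at 14.5 to 24.1 CPM in young adults and 46.0 and 46.5 CPM at 2 years, changed by 1.23 ± 0.16 (adjusted p = 6.31e-04).

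**Figure D3:**
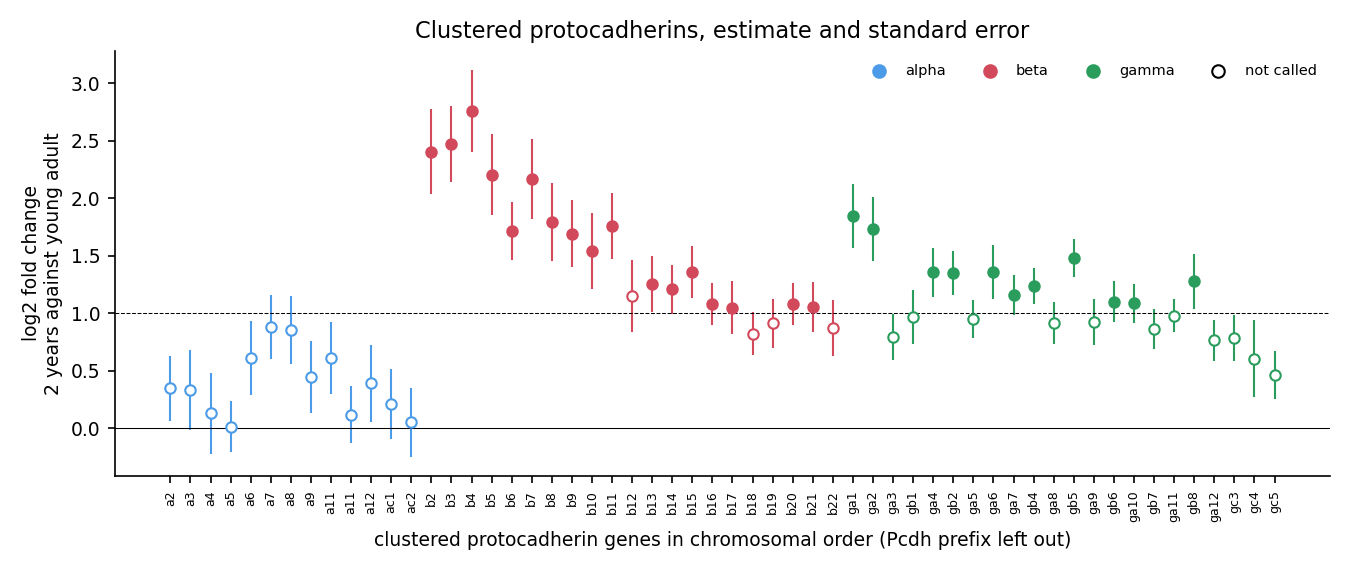
Log2 fold change at 2 years against young adults, with its standard error, for the 56 tested clustered protocadherins in chromosomal order (2 gene models carry the name *Pcdha11*), where filled points were called and the dashed line marks 2-fold. The largest changes are at the start of the beta array, from *Pcdhb2* (2.40) to *Pcdhb4* (2.76), the alpha genes reach at most 0.88, and the C genes at the end of the gamma array reach at most 0.78.

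The interval of the arrays was compared with its surroundings. Between the outer ends of the arrays, at chr18:36939205-37841873 (GRCm38), 62 genes were tested, 31 were higher and none was lower. The 3 called genes there that are not protocadherins were *3222401L13Rik* (3.39), a noncoding RNA that starts between the beta and gamma arrays, and the pseudogenes *Gm18529* (2.31) and *Gm20162* (1.56). From P4 on, *3222401L13Rik* and *Gm18529* had all libraries of an age at 5 CPM or more only at 2 years. Among these ages they thus met the limit for testing only through the group where they were high. *Gm20162* was at 1.35 to 2.64 CPM in young adults and 7.27 and 5.65 CPM at 2 years. *Taf7*, a gene of the general transcription machinery that lies inside the interval on the other strand, changed by 0.42 ± 0.17 (adjusted p = 0.274), at 17.8 to 25.8 CPM in young adults and 29.1 and 31.5 CPM at 2 years. In the 1000000 bases on each side 33 genes were tested and none was called by edgeR, with a median change of 0.10.

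The protocadherin counts bear some limits of their own. All alpha and gamma genes and 12 of the 21 beta genes took fractional shares of reads that fit more than 1 gene. The 7 called beta genes *Pcdhb2*, *Pcdhb4*, *Pcdhb5*, *Pcdhb13*, *Pcdhb14*, *Pcdhb15* and *Pcdhb16* had whole-number counts in all 8 libraries. A read that fits several genes but is given wholly to 1 of them would also leave a whole number. Among protein-coding genes with 1 exon, 14 of 17 protocadherins were higher, and of the 301 others 2 were higher and 4 lower, with a median change of 0.06. Without replicate 1 at 2 years 17 protocadherins were called, and without replicate 2 only 9, since then a lone library stands for the age. Against P13, whose share of copies resembled that at 2 years, 27 of the 28 were called as well, beside 3.76% of all genes, and the median change was 1.66 in the beta array and 1.499 in the gamma array. That comparison reuses the libraries at 2 years by which the 28 were called, so it is no second test of them.

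Open chromatin gave a readout that the RNA comparison did not use, from 2 ATAC libraries each at P21, P56 and 2 years whose nuclei were sorted by flow cytometry from brachial, thoracic and lumbar cord. A gene was counted when a peak lay within 1000 bp of its start site. Over all tested genes with a position, 15020 of them, 82.2% to 84.4% had such a peak in young adults and 83.0% and 83.4% at 2 years. Of the 21 beta protocadherins 3 and 6 had one at P21, 5 and 3 at P56, and 16 and 20 at 2 years. Of the 22 gamma genes 14 and 16 had one at P21, 14 and 13 at P56, and 17 and 20 at 2 years. The alpha genes had one in 10 to 12 of 13 in young adults and in 12 and 13 at 2 years. The beta array therefore went from few peaks to many, while most alpha genes had a peak at every age. Among the 50000 strongest peaks, 2 of the 13 alpha genes had one in each young adult library, and 4 and 3 at 2 years. Ranked by strength, the alpha peaks had medians at 42.7% to 60.8% of the list in young adults and 32.6% and 29.7% at 2 years. Those of the beta array stood at 49.8% to 79.6% and at 36.8% and 29.8%, so peaks of both arrays ranked higher at 2 years.

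Of the 28 protocadherins that were higher in RNA, 6 and 10 had a start site peak at P21, 10 and 8 at P56, and 21 and 27 at 2 years. Among the 50000 strongest peaks of each library, 4 to 6 of the 56 protocadherins had one in young adults and 18 and 22 at 2 years. The libraries held 197217 and 235590 peak entries at P21, 171357 and 170695 at P56, and 175491 and 195704 at 2 years, so both old libraries held more peaks than those of P56 and fewer than those of P21. The other tested genes of chromosome 18 had a peak in 83.2% to 85.6% in young adults and 84.8% at 2 years. No p is given, since the reads behind the peaks are unknown and 2 libraries stood against 4.

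**Figure D4:**
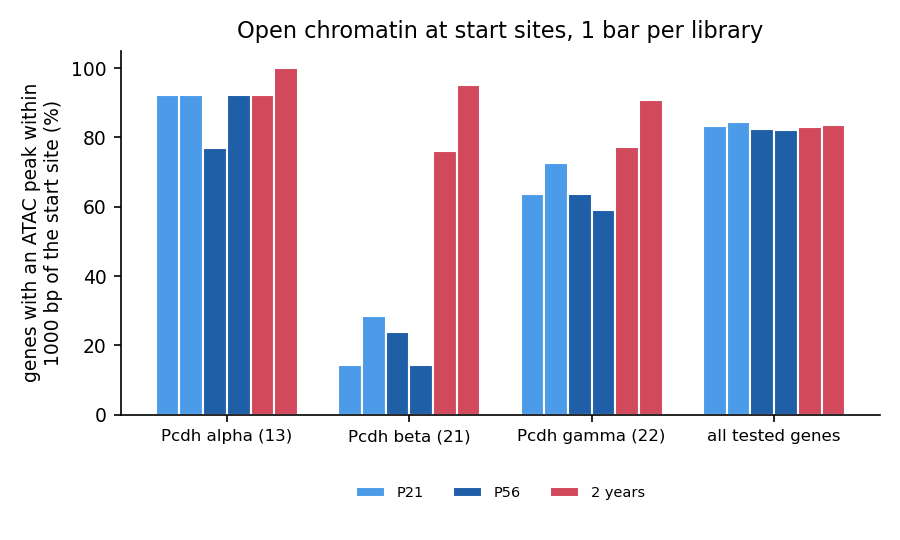
Share of genes with an ATAC peak within 1000 bp of the start site (percent, vertical axis), with a bar for each library, for the 3 protocadherin arrays and all tested genes. The beta array has 3 to 6 of 21 genes with a peak in young adults and 16 and 20 at 2 years, while all tested genes stay between 82.2% and 84.4%.

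Start sites with a peak in both libraries at 2 years and in none of the 4 young adult ones numbered 31 of 15020 (0.206%), and the reverse numbered 11 (0.0732%). Of the 31, 8 belonged to protocadherins, *Pcdhb2*, *Pcdhb6*, *Pcdhb7*, *Pcdhb8*, *Pcdhb11*, *Pcdhb13*, *Pcdhb22* and *Pcdhga4*, and *Pcdhb22* was the only one of them whose RNA was not called. The peaks of these 8 at 2 years ranked from 26184 (*Pcdhb2*, replicate 2) to 163516 (*Pcdhb6*, replicate 1), so some were near the weak end of the list. *Adamtsl5*, a secreted protein of the matrix, had the same pattern, with peaks in the weaker part, at rank 98195 of 175491 and 124249 of 195704. The RNA of *Adamtsl5* went from 4.76 to 14.9 CPM in young adults to 21.3 and 23.1 CPM at 2 years (1.44 ± 0.34, adjusted p = 0.039). It was named after its values were seen. The other 35 protein-coding genes that were higher in RNA had a peak in 85.7% to 88.6% in young adults and 88.6% and 91.4% at 2 years. The genes that were lower had one in 47.6% to 57.1% in young adults and 50% and 52.4% at 2 years.

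Some of the genes that oligodendrocytes use to build myelin were lower than in the pooled young adults, and none of the list was called against P56. Oligodendrocytes are not cholinergic. In bulk RNA fewer cells of a type and less RNA per cell cannot be told apart. Of 14 tested oligodendrocyte genes 4 were lower, among them *Cldn11*, *Ugt8a* and *Mobp*, and none was higher, with a list median of -0.82. Against P21 singly 7 were lower, against P56 singly 0, and 3 were lower at P56 than at P21. The summed level of the list was 503 to 1821 CPM in young adults, with a median of 1053, and 405 and 471 CPM at 2 years.

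*Mal*, a lipid raft protein of myelin, was at 73.4, 109 and 112 CPM at P21, at 24.1, 35.7 and 34.5 CPM at P56 and at 15.6 and 14.9 CPM at 2 years. It was lower at each later age, and the groups did not overlap. Its change against the pooled young adults was -1.87 ± 0.27 (adjusted p = 0.00178), with -2.69 against P21 and -1.05 against P56 (adjusted p = 0.131). *Cldn11*, a tight junction protein of the myelin sheath, changed by -1.48 ± 0.33, yet its old libraries at 4.16 and 4.99 CPM overlapped with P56 and it changed by -0.46 against that age (adjusted p = 0.663). *Mobp*, a basic protein of myelin, and *Ugt8a*, which makes its galactolipids, changed by -1.39 and -1.40, and by -0.61 and -0.89 against P56, neither called there.

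*Gjc3*, a gap junction gene of myelinating glia, and *Marcksl1* and *Marcks*, substrates of protein kinase C, were lower by the same pattern and were named after their values were seen. *Gjc3* was at 4.54 to 9.93 CPM in young adults and 1.82 and 2.17 CPM at 2 years (-1.68 ± 0.38). *Marcksl1* went from 2.88 to 11.5 CPM to 2.34 and 1.41 CPM (-1.72 ± 0.32), and *Marcks* from 9.70 to 24.2 CPM to 6.50 and 8.58 CPM (-1.06 ± 0.20). All 3 passed against P21 and not against P56. The call of the oligodendrocyte list was not firm: with P21 and P56 fitted as 1 group of 6, so that the drop between them counts as spread, 1 of the 4 was called. Without replicate 2 or 3 of P21, or replicate 2 or 3 of P56, 2 were called, and 1 was called without either library at 2 years.

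Of the collagens, a neighbouring pair was higher. *Col4a5* and *Col4a6* code for chains of collagen IV and lie head to head on the X chromosome, with start sites 1343 bases apart. *Col4a5* was at 59.9, 59.6 and 53.4 CPM at P21, at 60.5, 74.9 and 67.3 CPM at P56 and at 128 and 137 CPM at 2 years. The old libraries lay clear of the young ones, and P21 and P56 were close together. Its change was 1.09 ± 0.14 (adjusted p = 6.31e-04), with 1.20 against P21 and 0.97 against P56 (adjusted p = 0.0102), the latter just short of 2-fold. *Col4a6* was at 3.44 to 10.01 CPM in young adults, with a median of 5.34, and at 25.2 and 27.3 CPM at 2 years (2.14 ± 0.34, adjusted p = 0.00226), with 1.64 against P56 (adjusted p = 0.0698). Both were lower still at P13, at 21.6 and 20.8 CPM for *Col4a5* and 0.852 and 0.186 CPM for *Col4a6*. Of 37 tested collagens these 2 were the only ones called higher and none was called lower, with a list median of -0.20. *Nid1*, which links collagen IV to laminin, was lower, at 2.36 to 7.78 CPM in young adults and 0.520 and 0.868 CPM at 2 years (-2.55 ± 0.52, adjusted p = 0.016).

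The 250 bases before each start site are shown because both genes of the pair rose. They are RefSeq sequence (GRCm38.p6) on the strand of each gene, at chrX:141475169-141475418 on the plus strand for *Col4a5* and chrX:141474077-141474326 on the minus strand for *Col4a6*. Capitals mark the letters CANNTG and GGGCGG, the core of E-boxes and GC boxes, on either strand.
Col4a5: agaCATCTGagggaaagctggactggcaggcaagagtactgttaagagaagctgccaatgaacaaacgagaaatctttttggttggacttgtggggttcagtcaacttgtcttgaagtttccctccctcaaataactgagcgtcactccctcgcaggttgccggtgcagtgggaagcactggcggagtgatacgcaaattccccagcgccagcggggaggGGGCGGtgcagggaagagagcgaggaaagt
Col4a6: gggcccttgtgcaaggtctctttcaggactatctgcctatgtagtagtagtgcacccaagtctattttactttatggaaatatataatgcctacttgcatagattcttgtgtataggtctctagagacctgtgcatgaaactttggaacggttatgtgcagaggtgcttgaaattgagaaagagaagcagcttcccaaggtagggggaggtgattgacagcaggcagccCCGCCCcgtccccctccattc
Each window held GGGCGG on some strand, as did 32.7% of 32851 promoter windows of this length, and *Col4a5* alone held CANNTG, as did 66.2% of them. An ATAC peak was near the *Col4a5* start site in replicate 2 of P21, of P56 and of 2 years and in no replicate 1, and it ranked in the weaker part of each list, so the chromatin data did not separate the ages there.

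**Figure D5:**
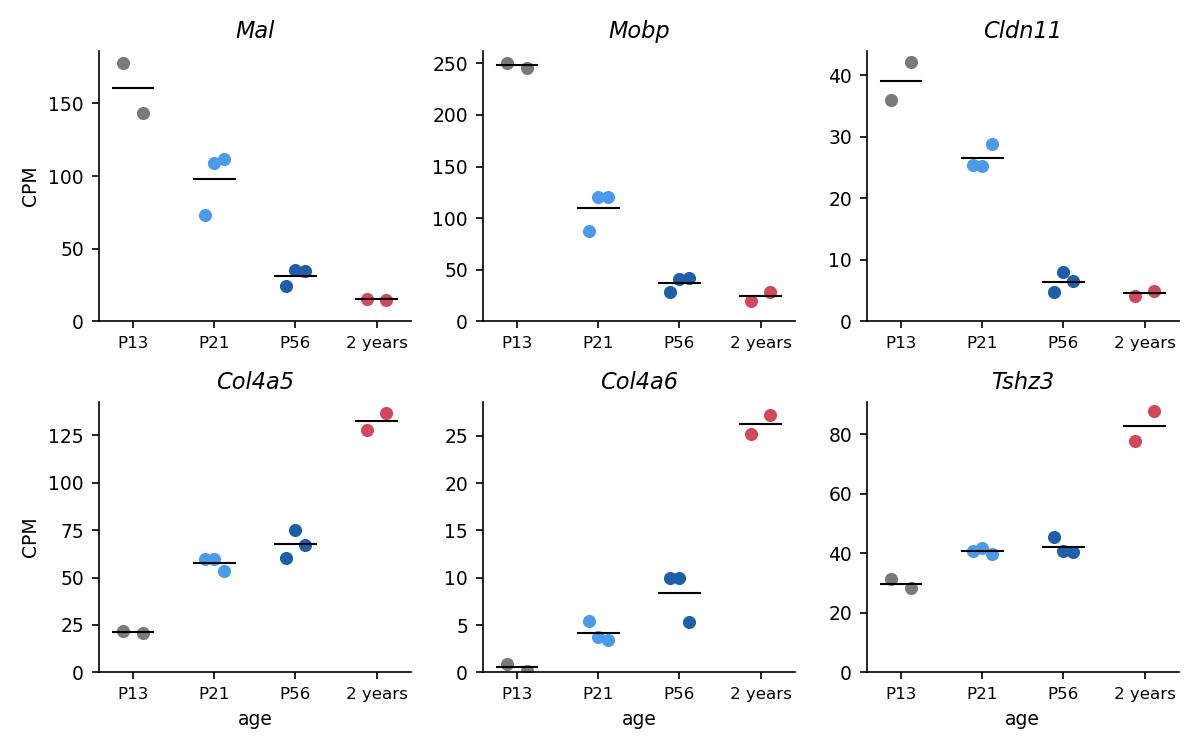
CPM of 6 genes by age (P13, P21, P56 and 2 years), where each point is a library and each line the mean of an age. *Mal*, *Mobp* and *Cldn11* step down from P13 to P56 and less after it, while *Col4a5*, *Col4a6* and *Tshz3* stand highest at 2 years, *Tshz3* at 77.7 and 87.9 CPM against 39.6 to 45.3 CPM in young adults.

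Among regulators of transcription *Tshz3*, a zinc finger factor of the nervous system, showed a change with little spread. It was at 40.8, 41.9 and 39.6 CPM at P21, at 45.3, 40.8 and 40.3 CPM at P56 and at 77.7 and 87.9 CPM at 2 years. The 6 young libraries were close together and both old ones lay above them. The change was 1.001 ± 0.16 (adjusted p = 0.00226), with 1.02 against P21 and 0.98 against P56, just under 2-fold there. *Glis3*, a zinc finger factor of the Gli family, was at 13.7 to 31.9 CPM in young adults and at 40.8 and 52.7 CPM at 2 years (1.14 ± 0.26, adjusted p = 0.0334) and passed against neither age singly. In the other direction *Zfp57*, which keeps DNA methylation at imprinted genes, was at 12.9 to 22.4 CPM in young adults and 7.53 and 7.82 CPM at 2 years (-1.14 ± 0.22, adjusted p = 0.0107) and passed against both. *Meis3*, a homeobox factor, went from 25.1 to 40.9 CPM to 11.95 and 18.13 CPM (-1.14 ± 0.23, adjusted p = 0.0166) and passed against P56 only. These 4, like the genes of the next paragraph other than *H2-K1* and *Syk*, were named after their values were seen.

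*H2-K1*, a classical MHC class I heavy chain, was at 0.252 to 1.83 CPM in young adults and 4.68 and 4.99 CPM at 2 years (1.97 ± 0.42, adjusted p = 0.0221). It rests on few reads and passed against neither age singly. It was the only called gene of 8 tested genes of MHC class I, although all 8 changed upward under each scaling tried, with a median of 0.77. *Ctsz*, a lysosomal protease, and *Parp9*, an interferon-induced gene, rose by 1.10 and 1.71. *Csf2ra*, a receptor chain for GM-CSF, fell from 32.7 to 49.7 CPM to 13.51 and 16.72 CPM (-1.46 ± 0.27, adjusted p = 0.00747) and passed against both ages. *Syk*, a kinase of immune receptor signalling, fell from 4.79 to 10.04 CPM to 0.779 and 2.06 CPM (-2.19 ± 0.41, adjusted p = 0.01).

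Marker lists of other cells were summed beside these genes. The 20 microglial markers summed to 16.3 to 28.0 CPM in young adults and 33.5 and 49.0 CPM at 2 years, without overlap, and 3 of them were tested, of which 1 was called. The 12 markers of activated microglia summed to 45.9 to 84.5 CPM and 66.8 and 98.7 CPM, with 4 tested and 0 called. Macrophage markers stood at 0.529 to 2.36 CPM and at 1.52 and 1.56 CPM, T and NK cell markers at 0 to 1.80 CPM and at 0 and 0.260 CPM with 4 of 10 at 0 in all 8 libraries, and B cell markers at 34.0 to 44.5 CPM and at 23.6 and 25.2 CPM. Astrocyte (268 to 451 CPM against 297 and 378 CPM), endothelial (2.62 to 18.8 against 2.60 and 5.43) and erythroid sums (13.9 to 73.5 against 15.59 and 18.02) were not clear of the young range. Sums of oligodendrocyte precursors (5.79 to 13.95 against 2.60 and 4.56) and of pericytes (10.3 to 20.7 against 5.98 and 8.58) were lower without overlap. No gene of these lists other than that 1 and the 4 oligodendrocyte genes was called in the pooled comparison, nor was any of the fibroblast, Schwann cell, ependymal and other transmitter class lists. Their part in the results was not tested.

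Of the 23 motor neuron identity genes 1 was called, *Spp1*, osteopontin, which marks large motor neurons. It was at 15.1 to 26.5 CPM in young adults, with a median of 21.1, and at 45.0 and 43.1 CPM at 2 years (1.06 ± 0.24, adjusted p = 0.0297), and it passed against neither age singly. The list median was 0.03. *Tuba4a*, an alpha tubulin linked to amyotrophic lateral sclerosis, was at 20.0 to 27.0 CPM and at 47.3 and 48.2 CPM (1.08 ± 0.22, adjusted p = 0.0144), the 1 called gene of 19 with such a link. It had stood at 80.4 and 87.5 CPM at P13. *Prrt2*, a presynaptic protein, fell from 103 to 145 CPM to 48.3 and 54.4 CPM (-1.19 ± 0.28, adjusted p = 0.0356) and passed against neither age singly.

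Many lists of neuronal function and stress held no called gene by edgeR in the pooled comparison, where 2088 of all 15030 genes had an unadjusted p under 0.05. They were voltage-gated ion channels (96 tested, median -0.03), glutamate receptors (24, 0.03), GABA and glycine receptors (15, 0.03), axon guidance (66, -0.01), neurofilaments and the cytoskeleton (12, 0.04), neuropeptides (9, -0.14), trophic factors and receptors (16, 0.04) and Hox genes (33, -0.22). The same held for heat shock proteins (14, 0.04), the unfolded protein response (12, 0.04), p53 targets and senescence (15, 0.17), interferon-stimulated genes (19, 0.42), complement (5, 0.30), nerve injury (17, 0.15), immediate early genes (18, 0.27), lysosome and autophagy (19, 0.20), proteasome (35, 0.16), cholesterol synthesis (18, 0.10), the circadian clock (15, 0.05), glucocorticoid response (10, 0.10), abundant long noncoding RNAs (8, -0.24), histone genes (9, 0.75) and sex-linked genes (5, 0.01). A list with no call may still hold changes under 2-fold that 2 libraries do not resolve.

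Some ribosomal protein genes rose, and few genes of mitochondria were called. Of 86 tested cytosolic ribosomal protein genes 6 were higher and 2 lower, and 76 changed upward (73 with median-of-ratios scaling), with a median of 0.48. *Rps2*, a protein of the small subunit, was at 22.9 to 37.5 CPM in young adults and 139 and 116 CPM at 2 years (1.94 ± 0.14, adjusted p = 1.53e-06), and it passed against both ages. At P13 it had stood at 156 and 134 CPM, and 2 years did not differ by a call from P13. *Rpl22l1* (1.55), *Rpl27a* (1.31), *Rps16* (1.15) and *Rpl10* (1.04) rose as well. Of 87 tested nuclear-encoded genes of the respiratory chain *Atp5mpl*, a small subunit of ATP synthase, was called. It was at 3.51 to 5.50 CPM in young adults, 22.3 and 18.5 CPM at 2 years (2.18 ± 0.22, adjusted p = 6.37e-05) and 70.6 and 75.9 CPM at P13. *Tomm7*, part of the import pore of the outer membrane, ran alike, at 1.28 to 3.17 CPM, 7.53 and 6.62 CPM, and 15.2 and 19.9 CPM at P13. Of the 15 tested mitochondrially encoded genes 3 changed upward, with a list median of -0.30, and 1 was called, *mt-Atp6*, which had no count in the young adult libraries or in replicate 1 at 2 years and 16.8 CPM in replicate 2.

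Several ribosomal genes have near-identical copies between which reads are split. Pairs of a gene and a copy of it elsewhere include *Rps27* on chromosome 3 and *Rps27rt* on chromosome 9. Their coding sequence, aligned from the reference genome, is shown because it is the same in both over all 255 bases, so a read that lies inside it fits both genes equally.
Rps27 and Rps27rt: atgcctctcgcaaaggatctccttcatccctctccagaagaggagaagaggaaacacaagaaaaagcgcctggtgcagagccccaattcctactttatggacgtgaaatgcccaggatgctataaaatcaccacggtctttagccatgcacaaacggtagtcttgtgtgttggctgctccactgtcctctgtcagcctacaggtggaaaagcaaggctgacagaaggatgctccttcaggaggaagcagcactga
*Rps27rt* took 22.5% to 48.7% of the pair's counts in young adults, 0% and 2.5% at 2 years and 0% at P13. The change of *Rps27rt* was -5.29 ± 0.77 (adjusted p = 0.00178), and the counts of *Rps27* were 18 to 32 in young adults and 28 and 39 at 2 years. *Rpl10-ps3*, whose 645 coding bases are those of *Rpl10*, took 14.5% to 30.7% in young adults and 0% and 0.973% at 2 years, while *Rpl10* itself rose. *Rps2-ps10*, 98.0% identical to the coding bases of *Rps2*, took 9.87% to 18.7% and then 0.557% and 0.558%. Similar shares moved for *Rpl9-ps6*, *Rpl37rt*, *Eno1b* and *Gpx4-ps2*, all at 99.4% identity or above with their parent genes. All 7 copies were called lower, and no pair without a called copy was counted. *Gm3839*, *Gm9774* and other predicted genes in this group have no parent assigned here.

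Small RNAs were the other group with many members. Small nuclear and nucleolar RNA genes numbered 22 higher and 2 lower of 175 tested, against 62 and 29 of 12658 protein-coding genes, and 19 of the 22 took shares of reads that fit several genes. They are short RNAs that guide the modification and processing of ribosomal RNA or splice messenger RNA. Together they took 0.995% to 1.87% of all counts in young adults, 3.58% and 2.64% at 2 years and 0.944% to 1.19% at P13. *Snora74a* was at 13.49 to 19.65 CPM in young adults and 112 and 93.3 CPM at 2 years (2.56 ± 0.36, adjusted p = 0.00127), and it passed against both ages. The 4 called *Rnu3b* genes of the U3 RNA had identical values in each library, 19.7 to 49.4 CPM against 148 and 165 CPM, and took shared reads. A further gene model named *Rnu3b1* changed by -0.48 and was not called. Of the host transcripts of nucleolar RNAs, which were not counted as a group, *Snhg3* rose by 2.19, *Snhg20* by 1.19 and *Snhg15* by 1.22, the last 2 named after their values were seen. *Snhg3* holds *Snora73a*, which rose by 1.87, and the reads of a host and its guest overlap in place. *Snord89* fell from 43.5 to 152 CPM to 15.3 and 10.4 CPM. *Bc1*, a short RNA of dendrites that checks translation, fell from 15.9 to 53.2 CPM to 8.05 and 6.73 CPM (-2.19 ± 0.45, adjusted p = 0.018), with -2.18 against P21 and -2.19 against P56.

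For genes with no count in a group only a bound can be given, against a floor of 3 counts over the group. *Gm26244* was at least 873-fold higher at 2 years and *Gm24924* at least 1039-fold, both small nuclear RNA models. Both took shares of reads that fit more than 1 gene, so the bounds need not hold for their own RNA. How far the split of reads set these values was not tested. *Gm24924* stood at 276 and 77.7 CPM in the 2 libraries. Both were also counted at P13, *Gm26244* at 2350 and 2086 CPM and *Gm24924* at 418 and 45.2 CPM. *mt-Atp6* was at least 90.6-fold higher, on replicate 2 alone, and *Cdc20*, which drives cells out of mitosis, at least 4.67-fold, on 8 counts. *Gm49325* was at 0 at 2 years and at least 9.51-fold lower. *Gm27998*, *Gm12669* and *Rpl17-ps8* were the higher genes whose changes against the 2 ages lay furthest apart, with 9.51, 1.21 and 2.92 against P21 and 3.89, 6.48 and 6.15 against P56, and in each the young level was near 0.

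Over the whole set, 68 of the 109 higher genes and 17 of the 42 lower ones took shared reads. Counting only the 12716 tested genes with whole-number counts in all 8 libraries, an alternative chosen after seeing the data, 28 genes were higher and 18 lower, and 6 of these passed against both ages singly. Neither the share of copies nor the fragment length was tested as a cause of any of these changes.

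The late movers were also followed from P4 to P13, a step over which the share of copies fell as it did from young adults to 2 years, and its part in these counts was not tested. From P4 to P13, libraries that are in neither group, 29 of the 109 higher genes had risen and 13 fallen, or 26.6% and 11.9%, where 7.98% and 10.8% of all tested genes had. Of the 42 lower genes 7 had risen and 23 fallen, or 16.7% and 54.8%, and all 7 copies described above were among those that had fallen. Against P13, 64 of the 109 were higher and 17 of the 42 were lower at 2 years as well, where 3.76% and 7.18% of all tested genes were. The same 2 libraries at 2 years had selected these genes, so shares above those of all genes were favoured by the choice. *Mal* had stood at 178 and 143 CPM at P13. *Atp5mpl*, *Tomm7* and *Eif4a1*, a helicase of translation initiation that rose by 1.01, were of another kind, called higher against young adults and lower against P13. *Nid1* and *Gjc1*, a connexin, were at 21.2 and 32.0 CPM and at 4.26 and 6.51 CPM at P13, and lower at each later age. *Igf2bp2*, which binds messenger RNAs, fell by 1.58 on the log2 scale against young adults and was not called against P13.

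Promoters of the late movers were searched for 4 short motifs on both strands, in the RefSeq windows from 250 bases before to 50 after the start (GRCm38.p6), which matched 31 higher genes with 34 windows and 20 lower genes with 25. TGACGTCA, the cyclic AMP response element, was in 3 of 34 windows of higher genes (8.82%), in 4% of those of lower genes, in 3.10% of tested genes and in 1.79% of all windows. The core of interferon response elements (GAAA, any 2 bases, GAAA) was in 5.88%, 4%, 2.73% and 3.44%. TGANTCA, the AP-1 site, was in 2.94%, 4%, 4.76% and 7.81%, and CANNTG was in 61.8%, 72%, 63.0% and 72.3%. With 34 and 25 windows a difference of 1 or 2 windows moves these shares by several points.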

How the data were processed

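RNA libraries were made with a stranded total RNA kit with depletion of ribosomal RNA. Per the study's methods and processing notes, the authors trimmed reads with Trim Galore and cutadapt 0.6.2, aligned them to mm10 with STAR 2.5.2b and deposited expected counts per gene from RSEM 1.3.0, which splits a read that fits several genes between them. ATAC reads were aligned with BWA 0.7.1.7 and filtered with SAMtools 1.7.2, and the authors called peaks in each library with MACS2 2.2.7.1, whose deposited −log10 p-values rank the peaks here.

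Expected counts were rounded to whole numbers and tested with edgeR 4.0.16 in R 4.3.3 by the quasi-likelihood test, with TMM scaling and age as the only term. The fit held all 18 in vivo RNA libraries, which share an estimate of the spread, and the contrast set 2 years against the mean of P21 and P56. The E10.5 libraries in it came from whole cells of Hb9-GFP embryos and the others from nuclei. A gene was tested when some age had all its replicates at 5 CPM or more, which left 15030 of 55385. The 2 libraries at 2 years counted as such an age, so a gene could enter through a high level there, which favours calls of higher genes. The samples were grouped by their age labels. Replicates were pools of several animals, and p-values measure the spread between pools. The libraries held 3901648 to 9681412 counts, and bounds for genes with no count use a floor of 3 counts over a group, which covers counting error only. Gene positions and types came from GENCODE M21, and scripts used Python 3.11.15 with pandas 2.3.3, NumPy 2.4.6 and Biopython 1.88.

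Genes were named by rule: the 15 largest changes in each direction whose groups did not overlap, without predicted genes, called members of the gene lists, list genes used as checks, and in each direction the 3 called genes whose changes against P21 and P56 lay furthest apart. Genes named outside it were chosen after their values were seen, also where a sentence on them does not repeat this. The members and lists were chosen with earlier results of these data known. Lists by gene family took every symbol that continues the family's stem, without accessory and unrelated genes of similar spelling. Alternatives were median-of-ratios scaling, no filter, the 8 libraries alone, DESeq2 1.42.0, the likelihood ratio test, other limits, thinned counts, a replicate block, P21 and P56 as 1 group, leaving out each library and, for peaks, a window of 500 bp or the 50000 strongest. 4 more were added after seeing the data. The statistics were tested on simulated data. No column of another sample was used. Some genes that these rules select are not reported here.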

Additional observations from a re-analysis of the deposited data

Results flagged for a closer look

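In 4 of 81 values tested, 1 of the 6 young adult libraries stood far from the other 5. Chance alone gives about 1 in 20 for normally distributed values, which genes with no count in most libraries are not. *Gjc1* was at 4.59 CPM in replicate 1 of P21 and 1.31 to 2.42 CPM in the others. *Rps2* was at 22.9 CPM in the same library and 32.2 to 37.5 CPM in the others. *Rpl17-ps8* was at 0.540 CPM there and at 0 in the others, and *Gm27998* was at 3.02 CPM in replicate 3 of P56 and at 0 in the others. Both were among the genes named for the gap between their changes against P21 and P56. A lone young adult library with counts widens that gap, so the choice favoured this outcome.

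For some genes of myelin the change at 2 years was not the same against both young adult ages, because P56 and P21 differed themselves by edgeR's quasi-likelihood test. *Mal* changed by -1.64 from P21 to P56 (adjusted p = 0.012) and *Cldn11* by -2.04 (adjusted p = 0.012).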

How the results depend on the processing

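The size of the young adult plateau and the old group limit these counts: with 2 libraries at 2 years, leaving out either left a lone library, assumed to vary like the other ages. The cause of each shift below was not tested, except where fewer genes or libraries entered.

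The 151 genes called against pooled young adults (109 higher, 42 lower) became 328 with no filter, 241 with the 8 libraries fitted alone and 265 with the likelihood ratio test. DESeq2 called 167, of which 94 were higher and 73 lower. Leaving out a library gave 38 to 142, with 53 without replicate 1 and 38 without replicate 2 of 2 years. With whole-number counts only it was 46, with protein-coding genes only 87, without small RNAs and pseudogenes 89, and against P13 1644, of which 81 were shared with the 151; these 4 were chosen after seeing the data.

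Against P21 the 137 became 346, 293 and 266 in the same 3 settings, 46 to 133 when a library was left out (78 without replicate 2 of P21) and 52 with whole-number counts. Against P56 the 60 became 245, 202 and 173, 102 with DESeq2, 103 at an unadjusted p under 0.001, 8 to 59 when a library was left out, and 12, 30 and 32 with the first 3 added sets. P56 against P21 went from 8 to 80, 28 and 33, to 20 with DESeq2, to 26 at the unadjusted limit and to 0 to 8 when a library was left out. The 43 genes called against both ages singly became 149, 129 and 101, 74 with DESeq2, 66 at the unadjusted limit, 6 to 37 when a library was left out, and 6, 22 and 26 with the added sets.

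The 28 protocadherins became 9 to 30 when a library was left out and 7 with whole-number counts. The 4 oligodendrocyte genes became 1 with P21 and P56 as 1 group, 1 to 4 when a library was left out, 2 with whole-number counts and 13 against P13. The mean share of higher genes with a start site peak at 2 years, 78.2%, was 74.1% within 500 bp and 53.7% among the 50000 strongest peaks, and that of lower genes, 51.2%, was 46.4% and 27.4%.

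Same-numbered libraries correlated between -0.17 and 0.22 in their deviations from the age means, and differently numbered ones between -0.32 and 0.17. Within an age of 2 or 3 libraries the deviations depend on each other, so these values do not settle whether the numbers pair the samples. A replicate block gave 164 genes against pooled young adults, 162 against P21, 86 against P56, 62 against both singly, 4 for P56 against P21, 28 protocadherins and 3 oligodendrocyte genes. Of 1158 values of the 73 named genes, 963 kept their call, 195 lost it and 0 changed sign, and 16 genes kept it under all alternatives other than the 4 added ones.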

Other observations

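By chromosome, the higher genes were 34 of 424 tested on chromosome 18 (8.02%), of which 28 were protocadherins, and 13 of 1080 on chromosome 11 (1.20%). The other autosomes and the X chromosome held between 0.181% and 0.821%.

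Start sites that had an ATAC peak in both libraries at 2 years and in none at P21 and P56 lay mostly at genes whose RNA was not called. Outside the protocadherins *Adamtsl5* and *Gm45351* (2.69) were called higher. *Nnat*, an imprinted gene of the brain, changed by -0.35 and *S100a13*, a calcium-binding protein, by -0.44. The change furthest from 0 among those not called was that of *Serpinb6b*, a serpin, at -2.77 ± 1.92 (adjusted p = 0.569). They were named after their values were seen.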
